A study of Mus musculus with 12 samples.

Results

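The genes described here are 42 imprinted mouse genes, taken by name from 18 imprinted domains or single loci, of 53843 genes annotated on chromosomes 1 to 19 and X. They were scored for the Polycomb mark H3K27me3 (trimethylated lysine 27 on histone H3). The measurement was ChIP-seq, the sequencing of chromatin pulled down with an antibody to the mark, in iMEF cells, an immortalized line of mouse embryo fibroblasts. The cells carried floxed alleles of Ash2l (Ash2l fl/fl) and an inducible Cre-ER recombinase, and exon 4 of the endogenous gene had been deleted in all groups. They lived on human ASH2L with an N-terminal FKBP12F36V tag from a lentiviral construct, and the study names NG3, 1 clone, as the cells of its H3K27me3 ChIP-seq. ASH2L is a core subunit of the complexes that methylate lysine 4 of histone H3, and dTAG directs the tagged protein to degradation. Of the 12 libraries, 8 were H3K27me3, with 2 each from untreated cells (WT in the labels) and from cells under dTAG for 16, 24 and 48 h. The other 4 were inputs, which are chromatin without immunoprecipitation, with 2 from untreated cells and 2 from cells under dTAG for 48 h.

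The values used here are the positions of 101389 H3K27me3 sites found over all samples together. This list holds no signal and no column of a single library, so the untreated and treated groups could not be compared from it at any gene, it gives no replicate error and the depth behind a site is unknown. The study also names a list of sites changed at each time point, which was not used here. A gene was counted as having a TSS site if at least 1 bp of a site lay within 1 kb of the transcription start site (TSS) of any of its annotated transcripts. The covered share is the percentage of bases from the first to the last base of a gene that lie in sites. Positions are on mm10 (GRCm38), counted from 1. As a check of the cell type, 10 of 11 fibroblast markers had no TSS site, with Pdgfra as the exception. Of 8 markers of other lineages 7 had one, namely Sox1, Pax6, Neurog2, Cdx2, Pou5f1, Gata4 and Tal1. Of all protein-coding genes 26.9% had one, so most lack a TSS site in any case. A site at a marker is no measure of its expression.

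Imprinted genes are expressed mainly or only from the copy inherited from one parent. Many imprinted domains are governed by an imprinting control region (ICR) whose DNA methylation is set in the egg or the sperm. In the best known domains it acts on neighbouring genes through insulation by CTCF or through a long non-coding RNA (lncRNA). H3K27me3 is placed by Polycomb repressive complex 2, and at imprinted domains it is known mostly from the silent copy of genes under lncRNA control, with placenta as the best studied tissue. The names of the allele usually expressed are used below as background, since it can differ between tissues. The list of sites does not tell the parental alleles apart.

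Of the 42 imprinted genes, 22 (52.4%) had a TSS site, where 20.4% of all annotated genes had one. Among the 36 protein-coding members 19 had one, with 26.9% of all protein-coding genes, and among the 6 non-coding members 3 had one, with 16% of all genes of other types. The members are long, with a median length of 38872.5 bp against 3525 bp over all genes, and they have a median of 5 TSS positions against 1. Of the 6247 protein-coding genes at least as long as the median member, 33.6% had a TSS site. By the allele usually expressed, 10 of 21 paternally expressed and 11 of 20 maternally expressed members had a TSS site, and Gnas, with transcripts from either parental allele, had one too.

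The covered share differed widely between members. At least 50% of the gene body was covered in 7 members (16.7%), against 9.44% of all genes, and no base was covered in 16 members (38.1%), against 77.5% of all genes. Among the protein-coding genes at least as long as the median member, 5.36% were covered at 50% or more and 59.6% had no base covered. The median covered share was 2.55%, with quartiles of 0% and 35.5%, and the median over all genes was 0%. With all member bases pooled, 12.1% were in sites, compared with 7.19% of the bases of all genes and 6.75% of the genome outside gaps. The members held 173 distinct sites in their bodies or at their TSSs, with a median width of 657 bp, close to the 676 bp of all sites. The 33 of these that lay at a TSS had a median width of 2275 bp, and 7 of them were at least 10 kb wide.

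**Figure D1:**
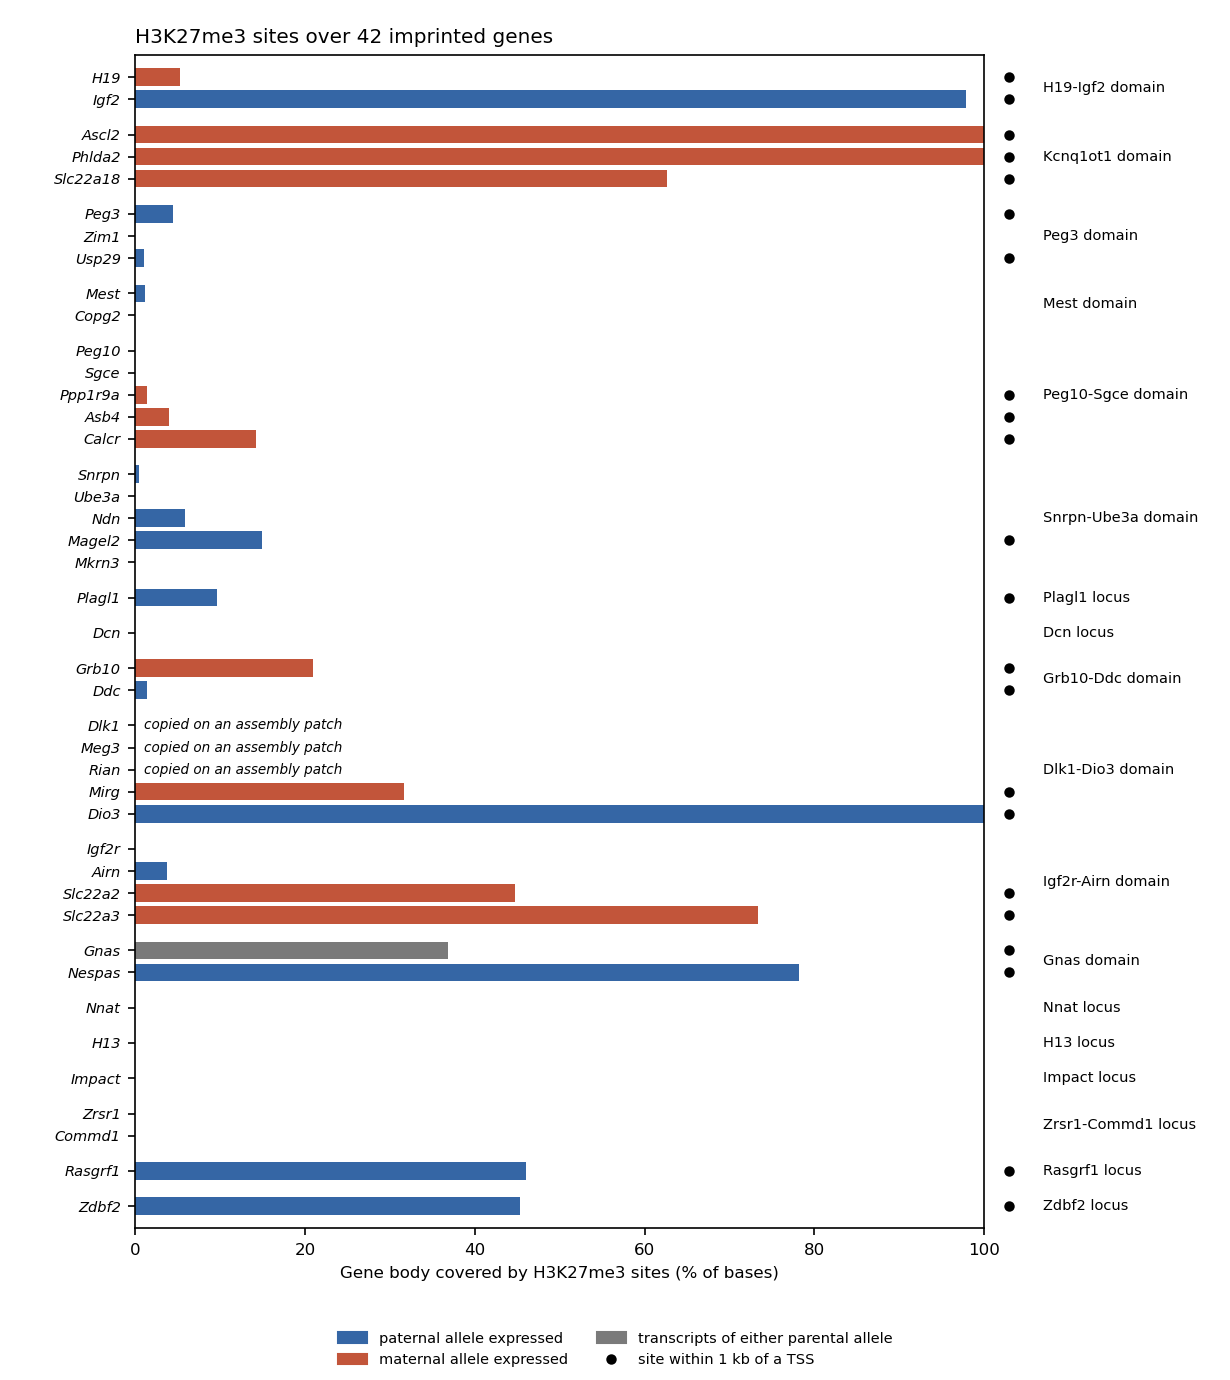
Covered share of the gene body, in percent of bases, for each of the 42 imprinted genes, grouped by domain and coloured by the allele usually expressed, with a black dot where a site lay within 1 kb of a TSS. Ascl2, Phlda2 and Dio3 reach 100%, 16 genes are at 0%, and Dlk1, Meg3 and Rian, 3 of these 16, lie in bases that are also present on an assembly patch.

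A limit of the genome applies to 3 members. Dlk1, Meg3 and Rian lie wholly (100% of bases) in a stretch of chromosome 12, chr12:109373903-109689534, that is also present on a patch sequence of GRCm38, an added scaffold that repeats part of a chromosome with corrections. This stretch of 316 kb held 0 sites, and the last site before it ended 42 bp from its first base. Over the genome, the bases with a copy on a C57BL/6J patch came to 19.3 Mb, of which 418 bp (0.00217%) were in sites, against 6.8% of all other bases. None of the 592 genes with at least 50% of their bases in such stretches had a TSS site. The lack of sites at Dlk1, Meg3 and Rian can therefore not be read as a lack of H3K27me3. Of the 39 members without such a copy, 22 (56.4%) had a TSS site, against 20.6% of all genes without one, and 13 (33.3%) had no base covered.

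Over spans from the first to the last member base, the H19-Igf2 domain on chromosome 7 had the highest covered share of the 18 domains and loci. It had 81.6% of its 91.29 kb in 19 sites. With 100 kb on each side its share was 38.1%, below that of the Nnat locus (54.2%) and of the Zdbf2 locus (40%). Chromosome 7 as a whole was covered at 9.83%, and the 1 Mb on each side of the domain, which includes the Kcnq1ot1 domain, at 28.6%. Igf2, a growth factor of the embryo expressed from the paternal allele, had 97.9% of its body covered and all of its 9 TSS positions inside sites. These were 2 sites of 14852 bp (chr7:142647105-142661956) and 5029 bp (chr7:142662287-142667315), over coding exons, UTRs and introns. H19, the maternally expressed lncRNA of the domain, was covered at only 5.32% of its body, by the edge of 1 site of 1627 bp that began outside the gene and reached 139 bp into its first part, and 4 of its 7 TSS positions were within 1 kb of it.

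The ICR between H19 and Igf2 is methylated on the paternal copy and binds CTCF on the maternal copy. RefSeq places it at chr7:142580248-142582833, a stretch of 2586 bp, and 66.2% of it was in 2 sites, chr7:142580897-142581842 and chr7:142582068-142588623. The 2 conserved elements upstream of H19 lay in the second of these sites, at 100% and 77.8% of their bases, and the shared enhancer region beyond H19 was covered at 36.3% by 6 sites. CTCF cores were searched in the ICR as CGNGGNGGC on both strands. There were 3 matches, all on the minus strand, and all fell in bases outside sites, at 578, 123 and 24 bp from the nearest one. They are shown 5′ to 3′ with 12 bases on each side and the core in capitals, since they lie in the part of the ICR that the 2 sites left out:
H19 ICR CTCF core 1 (chr7:142580299-142580331): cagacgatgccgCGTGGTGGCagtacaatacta
H19 ICR CTCF core 2 (chr7:142580754-142580786): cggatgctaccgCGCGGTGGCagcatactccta
H19 ICR CTCF core 3 (chr7:142582024-142582056): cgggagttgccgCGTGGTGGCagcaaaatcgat
A match of letters is a description and does not show binding in these cells. The search finds only this form of the core, so a CTCF site of the ICR with other letters would be missed. Such a site could lie inside or outside the H3K27me3 sites.

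In the Kcnq1ot1 domain, the neighbour of H19-Igf2, all 3 members had a TSS site and at least 50% of the body covered. These genes are maternally expressed and are silenced on the paternal copy with the help of the lncRNA Kcnq1ot1. Ascl2, a transcription factor of the placenta, was covered at 100% by a single site of 13829 bp, chr7:142959019-142972847. Phlda2, which restrains placental growth, was covered at 100% by a site of 4153 bp, chr7:143500099-143504251. Slc22a18, a transporter, was covered at 62.7%, yet none of its 5 TSS positions lay inside a site, and the nearest site ended 843 bp before the first one. The domain from Ascl2 to Phlda2 was covered at 30%, above its chromosome and close to the 26% of its flanks. These flanks include the H19-Igf2 domain. Kcnq1ot1 itself had no base covered, and its TSS was 18314 bp from the nearest site. Of the genes around it, Cdkn1c, an inhibitor of the cell cycle, had 94.6% of its body covered, Kcnq1 20.1% and Osbpl5 11.5%, all with a TSS site. No base was covered in Cd81, Tssc4, Nap1l4 and Tnfrsf23. Ins2 (19.7% covered) and Th (62.4%), which lie between Igf2 and Ascl2 and outside this span, had a TSS site too.

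The Igf2r-Airn domain on chromosome 17 was split in position. Slc22a3 and Slc22a2, transporters of organic cations that Airn silences on the paternal copy in placenta, were covered at 73.4% and 44.7%, each by 21 sites, with both TSS positions of each gene inside a site. Igf2r, the receptor that clears IGF2, had no base covered. Its protein-coding transcript Igf2r-201 started 69354 bp from the nearest site, and the shorter distance of 35417 bp was that of Igf2r-203, which is not protein-coding. Airn, the paternally expressed lncRNA that starts inside Igf2r and runs against it, had 3.73% of its body in 5 sites. Its first start, at chr17:12741311, was 75449 bp from a site, and its nearest TSS, that of Airn-205, was 23087 bp from one. The whole domain was covered at 34.8%, compared with 8.02% of chromosome 17 and 7.28% of its flanks.

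**Figure D2:**
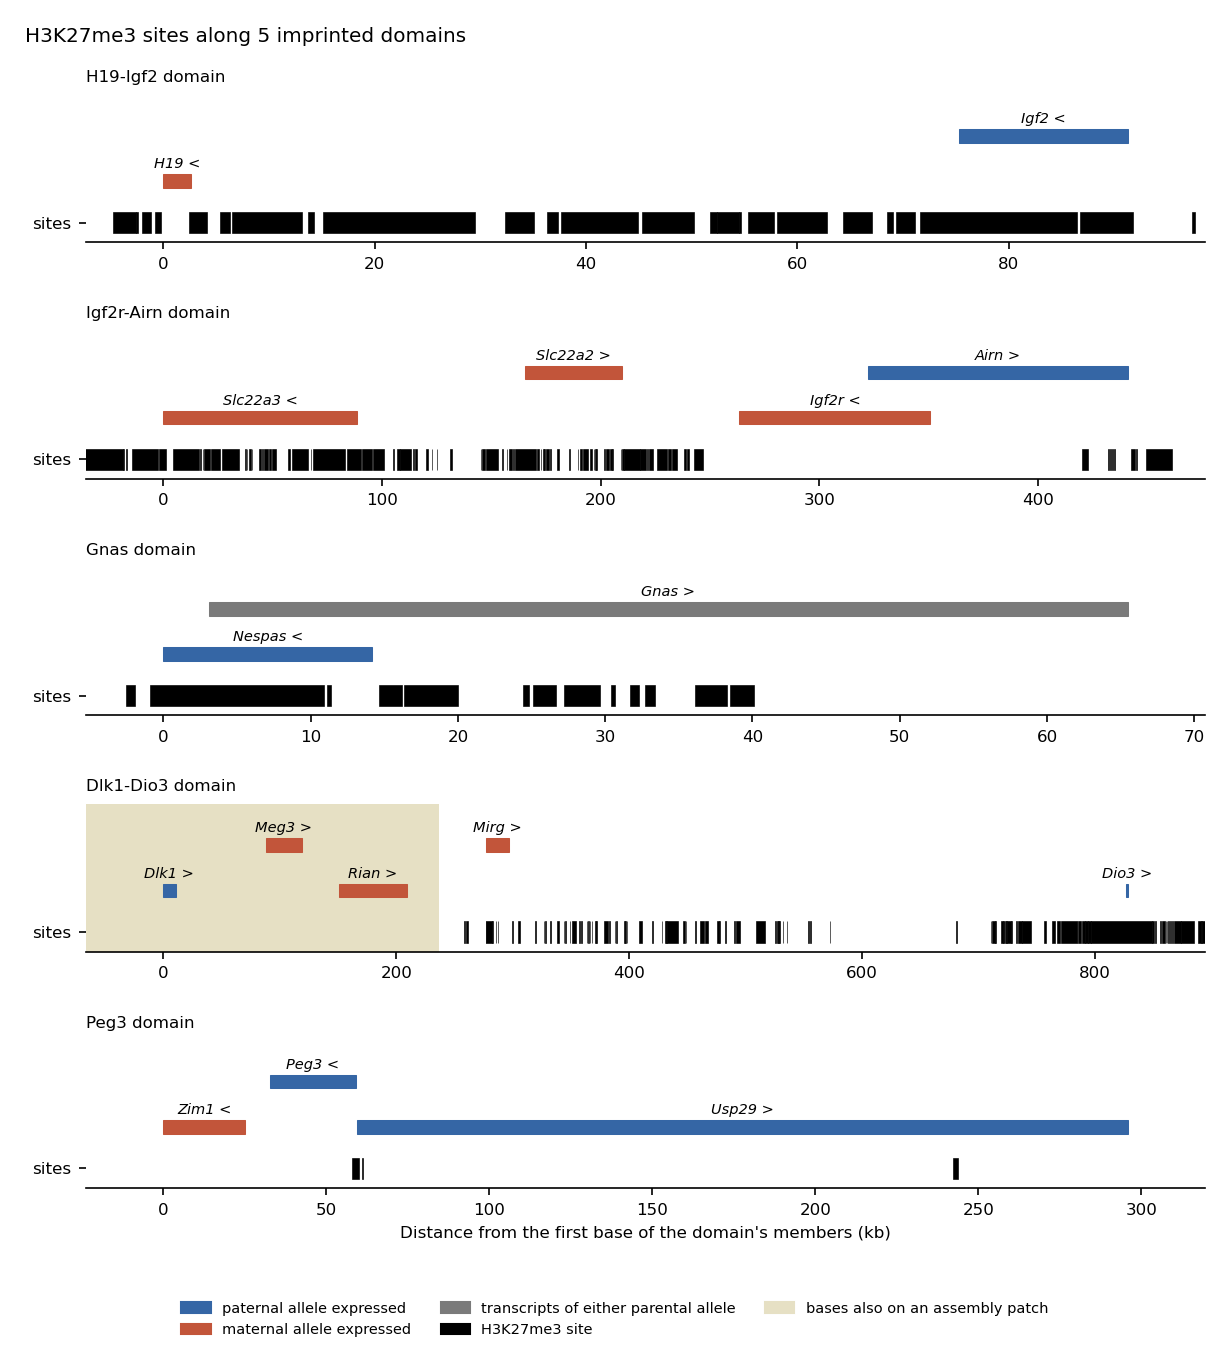
Positions of H3K27me3 sites (black) and of member genes along 5 imprinted domains, in kb from the first base of the members, with > for genes on the plus strand and < for genes on the minus strand. Sites fill 81.6% of the H19-Igf2 domain, lie over Slc22a3 and Slc22a2 and not over Igf2r (0% covered), stop before the late starts of Gnas, are absent from the shaded patch copy over Dlk1, Meg3 and Rian, and are 3 in number in the Peg3 domain.

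The Dlk1-Dio3 domain on chromosome 12 had 19.9% of its 828.3 kb covered, and 27.8% of the part without a patch copy, against 6.28% of the chromosome and 10.6% of the flanks. Dio3, the deiodinase that inactivates thyroid hormone, was covered at 100% by a site of 52004 bp, chr12:110249179-110301182, the widest at any member. Mirg, a maternally expressed lncRNA that hosts miRNAs, had 31.7% of its body and 42.8% of its exons in sites, and 8 of its 11 TSS positions were within 1 kb of one. Begain, at the far side of Dlk1, had 64.3% of its body covered. Rtl1, which is read against the miRNAs of the domain, lies wholly in the stretch with a patch copy and had no site.

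This domain also carries a large cluster of maternally expressed miRNAs. Of 58 hairpins listed by RefSeq between the first base of Dlk1 and the last base of Dio3, 11 overlapped a site. The 20 hairpins inside the patch copy included none of them, so that 11 of the remaining 38 were in a site, compared with 11.3% of 1005 hairpins over all chromosomes scored. Within Mirg 6 of 14 hairpins were in a site, and between members outside the patch copy 5 of 24. Neighbouring hairpins share sites and are not independent of each other. The mature sequences below are those of hairpins in a site, 1 arm of each, with the seed (bases 2 to 8) in capitals, shown since they name the hairpins of the domain that lay in sites:
mmu-miR-299a-3p: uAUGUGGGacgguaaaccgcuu
mmu-miR-299b-3p: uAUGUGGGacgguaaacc
mmu-miR-380-5p: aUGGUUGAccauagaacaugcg
mmu-miR-329-3p: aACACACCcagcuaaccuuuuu
mmu-miR-382-5p: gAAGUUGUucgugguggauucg
mmu-miR-134-5p: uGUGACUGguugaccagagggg
mmu-miR-668-3p: uGUCACUCggcucggcccacuacc
mmu-miR-485-3p: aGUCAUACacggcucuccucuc
mmu-miR-453: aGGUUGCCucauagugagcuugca
mmu-miR-154-5p: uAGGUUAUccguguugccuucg
mmu-miR-1247-5p: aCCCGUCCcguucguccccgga
Among these, mmu-miR-299a-3p and mmu-miR-299b-3p share the seed AUGUGGG, and they come from the 2 strands of the same place. The first 4 lie between Rian and Mirg and the next 6 in Mirg. The hairpin of mmu-miR-1247-5p lies far from these, in the wide site over Dio3, though it is counted with those between members. In the other domains, the hairpin of miR-483 in Igf2 was in a site, and its arm with the seed CACUCCU is shown:
mmu-miR-483-3p: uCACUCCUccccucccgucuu
None of the 13 hairpins of the Snrpn-Ube3a domain, the 1 of H19, the 1 of Usp29, the 1 of Mest or the 2 of Calcr was in a site.

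Gnas, which encodes the stimulatory G protein alpha subunit and alternative products from several promoters, and its antisense lncRNA Nespas were covered at 36.8% and 78.2%. The TSS positions of Gnas fell into separate blocks. The 4 positions from chr2:174284320 to chr2:174297859 were inside sites, of 11762 bp (chr2:174280358-174292119) and 3671 bp (chr2:174297589-174301259). The other 12 positions had no site within 1 kb, and of these the starts from chr2:174327570 to chr2:174330287 were 6244 to 8961 bp from one. All 3 TSS positions of Nespas had a site within 1 kb, and the sites of 11762 bp and 1545 bp were shared with Gnas. ChIP does not tell the strands apart, so these sites cannot be given to 1 of the genes. The Gnas domain was covered at 39.8%, against 8.74% of chromosome 2 and 8.88% of its flanks.

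Grb10, an adaptor that restrains growth signals of insulin and IGF receptors, also differed between its starts. Of its 9 TSS positions 5 had a site within 1 kb, among them the start of the transcript Grb10-201 at chr11:12037401 inside a site of 9548 bp (chr11:12034371-12043918), and 4 starts further downstream were 5931 to 37957 bp from a site. Its body was covered at 20.9% by 19 sites, while only 5.42% of its exon bases were in sites. Ddc, which makes dopamine and serotonin from their precursors, had 1.34% of its body covered and a single TSS site of 471 bp, chr11:11897614-11898084. The domain was covered at 10.6%, against 11.2% of chromosome 11 and 8.43% of its flanks. Its place below the chromosome turned with 100 kb on each side (24.1%) and with sites closer than 3000 bp merged (15.4%, against 14.4% of the chromosome so merged).

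Single loci with wide sites were Rasgrf1, Zdbf2 and Plagl1. Rasgrf1, an exchange factor for Ras, had 46% of its body covered by 29 sites, and all 3 TSS positions lay inside a site of 16723 bp, chr9:89906974-89923696. Zdbf2, a zinc finger gene, had 45.3% covered, and a site of 34882 bp (chr1:63241375-63276256) ran over 2 of its 3 TSS positions, with the third 4827 bp from a site. Its neighbour Adam23 had 49.8% covered by 63 sites. Plagl1, a zinc finger gene that slows cell growth, had 9.64% covered, and 1 of its 11 TSS positions, that of the upstream transcript Plagl1-225, lay in a site of 9926 bp (chr10:13056095-13066020). The other 10 positions were at least 15946 bp from a site.

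In the Peg3 and Peg10-Sgce domains sites were few or short, and the spans were covered at 1.3% and 1.82%. Peg3, a zinc finger gene, and Usp29, a gene of the ubiquitin peptidase family, start back to back and shared a site of 2040 bp, chr7:6729245-6731284. Their bodies were covered at 4.47% and 1.07%, and 3 of 4 and 6 of 9 of their TSS positions had a site within 1 kb. Zim1, on the other side of Peg3, had no base covered. In the Peg10-Sgce domain the maternally expressed genes Calcr (the calcitonin receptor, 14.2% covered by 18 sites), Asb4 (an adaptor of ubiquitin ligases, 4.01%) and Ppp1r9a (neurabin, 1.37%) had TSS sites of up to 5019, 1376 and 2275 bp. Calcr was covered above its chromosome (7.68%), and the others below it. Peg10, derived from a retrotransposon, and Sgce, a sarcoglycan, had no base covered, and their starts, which lie side by side with the genes read away from each other, were 154866 and 155065 bp from the nearest site.

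The Snrpn-Ube3a domain was covered at 0.916% of 3191 kb, with its flanks at 0.911% and chromosome 7 at 9.83%. Its share was 0.291% when sites under 1000 bp were left out and 1.91% with sites merged as above, below its chromosome in each case. Repeats made up 46.4% of its bases, the highest share among the 18 domains and loci, and their part in this was not tested. Magel2, an intronless MAGE gene, was the single member with a TSS site, of 1206 bp (chr7:62376496-62377701), and it was covered at 14.9%. Its neighbour Ndn, also a MAGE gene, had 5.87% covered, by a site of 217 bp that lay 1582 bp from the annotated start of GENCODE. The promoter entry of RefSeq for Ndn begins further inside the gene, and 176 of its 300 bases were in that site. Mkrn3 and Ube3a, both ubiquitin ligases, had no base covered, and Snrpn, a splicing protein, had 0.452%.

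The lowest covered shares were found at 5 loci with no base in a site: Dcn, Nnat, H13, Impact and Zrsr1 with Commd1. Dcn encodes decorin, a proteoglycan of the fibroblast matrix, and its nearest site was 68104 bp from a TSS, with 0.0927% of its flanks covered. The flanks of Nnat (a membrane proteolipid) and of H13 (a signal peptide peptidase) were covered at 32.4% and 33.8%. With 100 kb on each side, the share was 54.2% at Nnat and 8.34% at H13, close to the 8.74% of chromosome 2, so that the covered bases near H13 lay further away. Their nearest sites were 10817 and 41625 bp from a TSS, and Blcap, the gene in which Nnat lies, had a site 552 bp from a TSS. Impact, a regulator of translation, was 5593 bp from the nearest site, Commd1 3429 bp, and Zrsr1, a splicing gene inside an intron of Commd1, 12583 bp. In the Mest domain, Mest, a hydrolase-like gene, had 1.2% covered by a site of 298 bp, 2087 bp from a TSS, and Copg2, a subunit of a vesicle coat, had none. The domain was covered at 0.242%, below the 7.68% of chromosome 6. This turned with 100 kb on each side, where its share was 7.96%.

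**Figure D3:**
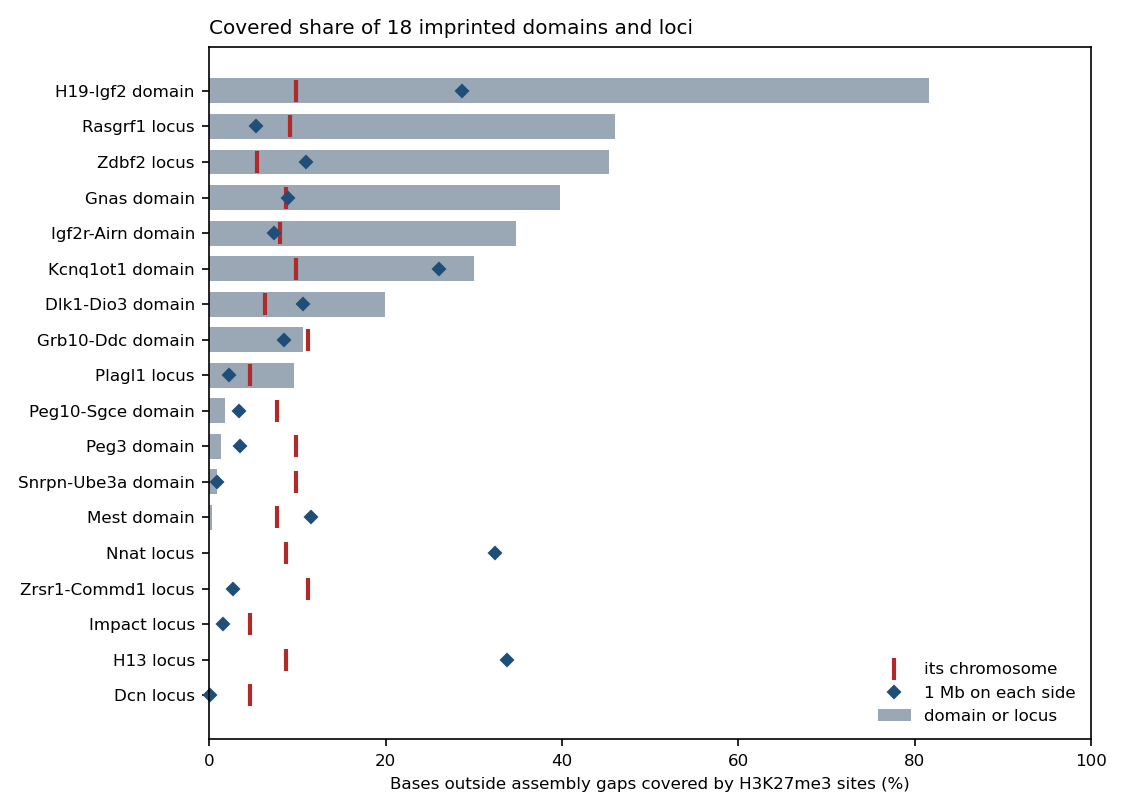
Covered share, in percent of bases outside gaps, of the 18 imprinted domains and loci (bars), of the chromosome of each (red ticks) and of 1 Mb on each side (blue diamonds). Values of the domains run from 0% at 5 loci to 81.6% at H19-Igf2, 8 of 18 are above their chromosome, and Nnat and H13 are at 0% with flanks above 30%.

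Compared by chromosome, 8 of the 18 domains and loci were covered more than their chromosome and 10 less, and 10 of 18 were covered more than their flanks. On chromosome 7, 8 of 13 members had a TSS site, against 20.7% of all genes of the chromosome, and its domains ranged widely, at 81.6%, 30%, 1.3% and 0.916%. On chromosome 6, 3 of 7 members had a TSS site (20.3% of all genes there) and 2.63% of the member bases were covered, below the 7.68% of the chromosome. On chromosome 17, 2 of 4 members had one (23.6% of all genes there) and 28.8% of the member bases were covered. On chromosome 12 it was 2 of 5 members (16.3% of all genes there), and the other 3 are those in the patch copy. Members with a TSS site were 2 of 4 on chromosome 2 (22.4% of all genes there), 2 of 4 on chromosome 11 (26.1%) and 1 of 2 on chromosome 10 (18.4%). The single members on chromosomes 1 (19.4%) and 9 (23.1%) had one, and the single member on chromosome 18 (18.2%) had none. With so few members on a chromosome, these counts show no order of the chromosomes.

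A gene-level count hides differences between starts. The 42 members have 270 distinct TSS positions, and 81 of these (30%) had a site within 1 kb, against 17.4% of the 130677 distinct TSS positions of all genes. A site was present at every TSS position in 11 members (15.6% of all genes), among them Igf2, Ascl2, Phlda2, Dio3, Slc22a2, Slc22a3 and Rasgrf1, and at some positions only in another 11 (4.76% of all genes), among them H19, Gnas, Grb10, Plagl1 and Zdbf2. Most genes have a single TSS position and cannot fall in the latter class.

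Promoter sequence was compared next, over the 300 bases from 250 before to 50 after the start in RefSeq (GRCm38.p6). Of the 42 members 36 matched by symbol, with 55 promoters, and H19, Peg10, Sgce, Dcn, Nespas and Impact were not matched. A promoter was called CpG-rich if its GC content reached 50% and its CpG count reached 0.6 of that expected from its C and G content (CpG observed/expected). Of the 55 promoters 27 (49.1%) were CpG-rich, against 33.7% of 32619 promoters, and 24 (43.6%) had a base in a site, against 18.5%. The share in a site was 40.7% of the CpG-rich and 46.4% of the other member promoters, and over all promoters it was 16% and 19.7%. Of the 31 member promoters outside sites, 4 lay in the patch copy on chromosome 12.

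**Figure D4:**
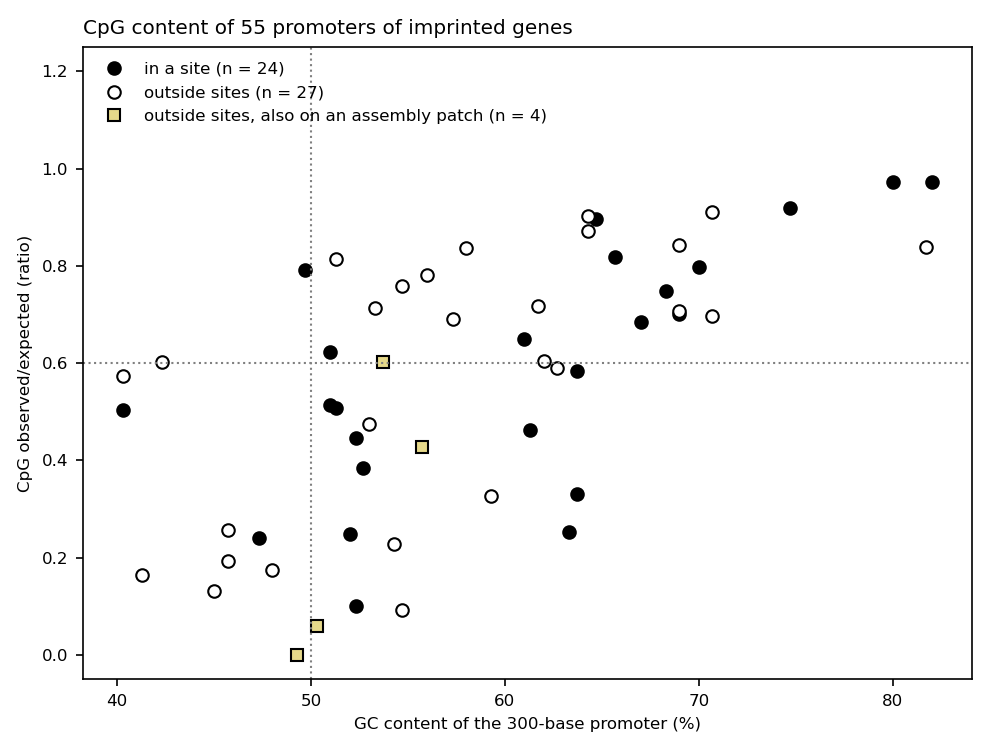
GC content (%) against the CpG observed/expected ratio for the 55 RefSeq promoters of imprinted genes, filled where a base lay in a site, open where none did, and square where the promoter is also on an assembly patch, with dotted lines at the limits for CpG-rich promoters. Filled and open points overlap over the whole range, with 11 of 27 CpG-rich and 13 of 28 other promoters in a site.

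Promoters in and outside sites are shown for genes of known control, with every CpG in capitals. Ascl2, Dio3 and Slc22a3 lay wholly in a site and hold 23, 25 and 5 CpGs, so that H3K27me3 was found at a CpG-rich start and at a CpG-poor one alike:
Ascl2 (chr7:142969215-142969514, minus strand): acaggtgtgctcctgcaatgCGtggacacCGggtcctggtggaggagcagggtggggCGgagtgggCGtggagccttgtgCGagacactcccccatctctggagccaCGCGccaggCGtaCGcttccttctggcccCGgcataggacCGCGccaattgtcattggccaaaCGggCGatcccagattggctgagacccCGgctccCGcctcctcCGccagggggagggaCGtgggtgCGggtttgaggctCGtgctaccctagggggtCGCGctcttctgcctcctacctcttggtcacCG
Dio3 (chr12:110278980-110279279, plus strand): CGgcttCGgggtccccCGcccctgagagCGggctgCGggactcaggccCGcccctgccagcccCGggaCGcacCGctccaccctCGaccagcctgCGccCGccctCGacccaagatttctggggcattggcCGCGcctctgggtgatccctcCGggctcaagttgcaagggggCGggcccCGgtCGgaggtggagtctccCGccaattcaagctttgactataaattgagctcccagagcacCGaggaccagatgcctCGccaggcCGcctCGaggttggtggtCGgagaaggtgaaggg
Slc22a3 (chr17:12507655-12507954, minus strand): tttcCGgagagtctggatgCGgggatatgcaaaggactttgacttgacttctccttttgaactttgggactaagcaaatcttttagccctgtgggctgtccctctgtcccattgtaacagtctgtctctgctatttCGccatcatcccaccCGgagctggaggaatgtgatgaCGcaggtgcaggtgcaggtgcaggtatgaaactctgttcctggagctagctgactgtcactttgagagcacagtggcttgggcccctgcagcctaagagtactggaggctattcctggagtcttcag
Igf2r, Mest and Nnat had no base in a site and hold 34, 17 and 17 CpGs:
Igf2r (chr17:12769657-12769956, minus strand): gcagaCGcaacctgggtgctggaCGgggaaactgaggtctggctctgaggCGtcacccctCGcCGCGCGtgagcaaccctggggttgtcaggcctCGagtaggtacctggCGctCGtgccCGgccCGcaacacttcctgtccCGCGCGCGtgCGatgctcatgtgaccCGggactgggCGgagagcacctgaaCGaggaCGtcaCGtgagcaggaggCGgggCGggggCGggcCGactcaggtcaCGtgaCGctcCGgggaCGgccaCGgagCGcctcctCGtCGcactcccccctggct
Mest (chr6:30737803-30738102, plus strand): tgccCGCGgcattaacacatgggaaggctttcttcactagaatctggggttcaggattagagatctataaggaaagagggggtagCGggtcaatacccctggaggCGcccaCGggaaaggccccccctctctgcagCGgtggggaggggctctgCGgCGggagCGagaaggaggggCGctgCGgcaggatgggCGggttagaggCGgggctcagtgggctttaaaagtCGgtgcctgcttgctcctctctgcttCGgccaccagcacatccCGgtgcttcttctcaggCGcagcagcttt
Nnat (chr2:157559828-157560127, plus strand): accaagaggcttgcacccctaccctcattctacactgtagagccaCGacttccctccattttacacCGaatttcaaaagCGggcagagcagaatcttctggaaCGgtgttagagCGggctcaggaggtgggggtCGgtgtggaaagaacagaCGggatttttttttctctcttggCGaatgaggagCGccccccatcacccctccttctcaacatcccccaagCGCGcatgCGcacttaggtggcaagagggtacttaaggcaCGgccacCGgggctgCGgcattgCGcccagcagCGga
By CpG count alone these groups overlap.

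ZFP57 is a zinc finger protein that keeps methylation at ICRs, and its motif was searched as TGCCGC on both strands. It was found in 14 of 55 member promoters (25.5%) and in 11.7% of all promoters, with 4 of the 24 member promoters in a site (16.7%) and 10 of the 31 outside (32.3%). Over all promoters these shares were 11.8% and 11.6%. The CTCF core CGNGGNGGC was found in 11 member promoters (20%) and in 9.92% of all, with 7 of the 24 in a site (29.2%) and 4 of the 31 outside (12.9%), and over all promoters 11% and 9.68%. Both motifs contain CpGs. TGCCGC was in 37% of the CpG-rich member promoters, against 25.2% of all CpG-rich promoters, and in 14.3% of the other member promoters, against 4.82%. CGNGGNGGC was in 33.3% and 7.14% of these member promoters, against 25% and 2.26%. The member promoters hold more CpGs than all promoters, with medians of 14 and 7. Promoter entries of Mest, of Gnas, and of Peg3 with Usp29 overlap in part, so some letters count more than once.

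Genes around these members were taken from further lists. Of 34 other imprinted genes, 11 (32.4%) had a TSS site, against 20.4% of all genes and 26.9% of protein-coding genes. They are long too, with a median of 34872 bp. Their share was close to the 33.6% of protein-coding genes at least as long as the median member. Those with a TSS site and not named so far were Klf14 (53% covered), Kcnk9 (10%) and Cobl (0.561%). Of those without one, Rtl1 and Gatm lie wholly in bases with a patch copy. Of 5 genes whose imprint in the early embryo rests on maternal H3K27me3, Sfmbt2 (2.4%) and Smoc1 (15.3%) had a TSS site, and Gab1, Slc38a4 and Jade1 had no base covered. Of 16 regulators of imprints, 2 (12.5%) had a TSS site, below the 26.9% of protein-coding genes, Dnmt3l, a cofactor of methylation in germ cells that was covered at 53.3%, and Dnmt3a, whose nearest site was 909 bp from a TSS with no base of the body covered. Among the 14 without one, Ctcfl, a paralog of Ctcf in germ cells, was covered at 45.2% by 6 sites, the nearest 1710 bp from a TSS, and Trim28, the partner of ZFP57, at 13.1%. No base was covered in 13 of the 16 genes (81.2%, against 69.4% of protein-coding genes), among them Zfp57, Ctcf, Dnmt1 and Ezh2.

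Igf2, Igf2r and Grb10 belong to the insulin-like growth factor (IGF) axis. Of protein-coding genes 26.9% had a TSS site, and 33.6% of those at least as long as the median member. Of 14 other genes of this axis, with a median length of 38375 bp, 6 (42.9%) had one. These were Igf1, a second ligand (0.56% covered), Irs2, a substrate of the receptors (2.76%), the binding proteins Igfbp2 (13.1%), Igfbp3 (19.8%) and Igfbp5 (70.5%), and Igf2bp1, an RNA-binding protein of Igf2 mRNA with a site 152 bp from a TSS and no base covered. The receptors Igf1r and Insr had none, at 11140 and 2372 bp from the nearest site. Within the axis, the ligand Igf2 was thus covered at 97.9% and its clearing receptor Igf2r at 0%.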

How the data were processed

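The deposited list holds the positions (chromosome, start, end) of H3K27me3 sites over all samples. The study's methods name Trim Galore for trimming, BWA for alignment to mm10 (GRCm38.p6 from GENCODE), samtools for filtering of unusable reads by ENCODE recommendations, Picard for merging replicates and MACS for broad peaks, with modified nf-core code. The authors also normalized ChIP-seq libraries to the lowest coverage of an experiment, and whether peaks were called before or after this is not stated. The submitters' processing notes also name deepTools and DESeq2. Tool versions, cutoffs, whether the reference included patch sequences, the exact read filters, and the rule that joined sites of different samples were not given in the sources used here. Starts were taken as counted from 0, from a smallest end minus start of 200 bp. All columns were used (0 unused columns).

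Sites were compared with GENCODE M21 genes and RefSeq sequences of GRCm38.p6 in Python 3.11.15, pandas 2.3.3 and samtools 1.23.1. Chromosome Y was not analysed here. Domain shares are over bases outside gaps. The 64 C57BL/6J patch sequences were aligned to their chromosomes with minimap2 2.31-r1302, keeping alignments of at least 10 kb at 99% identity outside indels. The interval code was tested on simulated data. The list used holds no values per library, so no test was made from it and values are descriptions without p-values. The members, gene lists and motifs were chosen with earlier results of these data known. All members are named, and from the other lists those with a TSS site, plus genes chosen after their values were seen. Groups came from titles, and the time of treated inputs from the sample records.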

Additional observations from a re-analysis of the deposited data

How the results depend on the processing

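No paired analysis was possible because the list holds no column of a single library. The count of 22 members with a TSS site ran from 15 (centre of the site within 1 kb, where Igf2, Ascl2, Slc22a18, Dio3, Slc22a3, Rasgrf1 and Zdbf2 were lost, 13.5% of all genes) to 25 (window of 3 kb, where Mest, Ndn and Mkrn3 were gained, 26.2%). It was 21 with sites of at least 1000 bp (without Ddc, 15.7% of all genes), with a TSS inside a site (without Slc22a18, 14.9%) and with basic transcripts (without Plagl1, 19.6%). The median covered share of 2.55% became 0.76% with sites of at least 1000 bp, 1.52% over exons alone and 4.01% without the 3 members on a patch, an alternative chosen after seeing the data. Members with at least 50% of the body covered rose from 7 to 13 after merging of sites closer than 3000 bp (12.1% of all genes), and 13 were covered at 20% or more (13.9%). The median over the 18 domains and loci moved from 5.73% to 17.7% with 100 kb added on each side, where 11 of 18 single values moved by more than 1.5 times and 11 domains were above their chromosome, against 8 by the main definition. The share also moved by over 1.5 times at 3 of 18 with sites of at least 1000 bp (Mest to 0%, Peg10-Sgce from 1.82% to 0.967%, Snrpn-Ube3a from 0.916% to 0.291%) and at 2 after merging (Peg10-Sgce 3.26%, Snrpn-Ube3a 1.91%). The depth is unknown, so a gene without a site may hold H3K27me3 below detection.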
